A study of Mus musculus with 6 samples.

Results

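Collagens are triple-helical proteins, each built from a trio of chains, and every chain is the product of its own Col gene. Fibrillar collagens carry tension in the adventitia and media of an artery, type IV collagens form the sheet-like network of basement membranes around smooth muscle cells and under endothelium, and type VI collagens form beaded filaments between them. In an aneurysm of the aorta the wall widens locally while its matrix is broken down and laid down again. The collagen chain genes described here are all genes of the deposited count table named Col, digits, a, digits, and nothing else, which gave 44 of 54532 genes. No measured value entered that choice. By their textbook type they comprised 11 fibrillar, 6 basement membrane (type IV), 6 beaded (type VI) and 21 other chains.

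RNA was sequenced from the abdominal aorta of mice at day 7 after aneurysm induction, from Olfr2 KO mice (3 libraries) and WT mice (3 libraries). Olfr2 encodes an olfactory receptor. The labels give no strain, age, sex or mode of induction, and name neither the number of animals behind a library nor the kind of KO allele, so the p-values cover library-to-library spread, which may be technical. Setting KO beside WT addresses how loss of Olfr2 bears on the lesion's transcripts.

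Library totals lay between 17248918 and 21872027 counts in KO and between 17388340 and 17987404 in WT. Olfr2 had 0 counts in all 6 libraries, so it gives no check of the genotype labels. Ddx3y, on the Y chromosome, had at least 1181 counts in every library and Xist at most 3, which bears on the X-linked Col4a5 and Col4a6. Smooth muscle markers, which define the labelled tissue, summed over 7 genes to 2550, 1633 and 2090 CPM (counts scaled to a common library size with TMM factors) in KO and 1114, 1451 and 972 CPM in WT. Most of that sum was Acta2, at 1909, 1163 and 1470 CPM in KO and 822, 1147 and 682 CPM in WT. Tagln lay between 4.18 and 10.4 CPM, and 67.9% of its exon bases overlap genes on the opposite strand, which makes its count uncertain. White adipocyte markers (6 genes) summed to 1446, 985 and 757 CPM in KO and 173, 222 and 703 CPM in WT. Fibroblast markers (8 genes) lay between 3411 and 3806 CPM in KO and between 3299 and 3950 CPM in WT. Some libraries stood apart. KO replicate 3 held 981 CPM of 6 skeletal muscle markers, against at most 16.0 CPM in every other library, and WT replicate 2 held 31.7 CPM of the macrophage gene Lyz2, against at least 3865 CPM elsewhere. Of the leukocyte markers (6 genes), the macrophage genes Cd68 at 411 CPM and Adgre1 at 464 CPM were highest in that same library. Ptprc, Cd3e, Cd79a and S100a8 were highest in other libraries. The 6 genes summed to 1590 CPM in WT replicate 2, the highest of all libraries. Mitochondrially encoded genes took 5.32, 2.59 and 2.32% of counts in KO and 1.84, 1.88 and 1.56% in WT, with every KO library above every WT library and KO replicate 1 furthest from the rest. The part of these differences in the results on collagen genes was not tested. In whole tissue, fewer cells of a type and less RNA per cell cannot be told apart.

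None of the 40 collagen genes that passed the filter on low counts was called between KO and WT at an adjusted p under 0.05 (quasi-likelihood F test of edgeR, Benjamini-Hochberg over all 16237 tested genes). That test called 0.0123% of all tested genes. At an unadjusted p under 0.05 there were 7 collagen genes (17.5%), against 11.3% of all tested genes. Higher values in KO at that p were seen in 5 of the 40 collagen genes, against 849 of 16237 tested genes (5.23%). Lower values were seen in 2 of the 40, against 987 of 16237 (6.08%). The 5 were Col4a3, Col4a4, Col4a5, Col4a6 and Col6a6, so 4 of them were type IV chains, and the 2 were Col5a1 and Col9a3. Other settings gave calls. DESeq2 called Col4a6 and Col4a4 (2.8% of all tested genes called), and edgeR without the filter on low counts called Col4a6, Col4a4 and Col6a6 (2.18% of genes called). That fit without the filter also called the skeletal muscle marker Myh4, at 0, 0 and 5550 counts in KO and 96, 1 and 0 in WT. A call by that fit can thus rest on a single library. Without KO replicate 1, the library with the highest mitochondrial share, the collagen genes at an unadjusted p under 0.05 numbered 4, namely Col4a4, Col4a6 and Col6a6 with higher values and Col11a1 with a lower one. Col4a4, Col4a6 and Col6a6 stayed under that p in all 6 fits that left out a single library, Col4a3, Col4a5 and Col5a1 in 2 of 6, and Col9a3 in 1 of 6. With KO replicate 3 and WT replicate 2 left out together, Col4a3, Col4a4 and Col4a6 stayed under it. Col6a6 did not (edgeR, unadjusted p = 0.0713), nor did Col4a5, Col5a1 and Col9a3.

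The genomic setting of the type IV genes bears on how they are read, because they sit in head-to-head pairs whose members are transcribed away from each other. Each pair has its own chain use. The chains of Col4a1 and Col4a2 form the network found in nearly all basement membranes, those of Col4a3 and Col4a4 join the Col4a5 chain in kidney glomerulus and lung, and those of Col4a5 and Col4a6 form a network in basement membranes of smooth muscle. On GRCm38, Col4a1 (ENSMUSG00000031502) lies on chromosome 8 from 11198423 to 11312826 on the minus strand and Col4a2 (ENSMUSG00000031503) from 11312805 to 11449287 on the plus strand, and their annotated 5′ ends overlap. Col4a4 (ENSMUSG00000067158) lies on chromosome 1 from 82448423 to 82586849 on the minus strand and Col4a3 (ENSMUSG00000079465) from 82586921 to 82722059 on the plus strand, with 71 bases between them. Col4a6 (ENSMUSG00000031273) lies on chromosome X from 141165403 to 141474076 on the minus strand and Col4a5 (ENSMUSG00000031274) from 141475385 to 141689234 on the plus strand. In RefSeq the starts of Col4a6 and Col4a5 are 1343 bases apart.

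The sequences before the starts of Col4a4, Col4a5 and Col4a6 are shown because they were the type IV genes with an unadjusted p under 0.05 and a RefSeq entry, and that of Col5a1 because it was the fibrillar gene with the smallest p. They are RefSeq sequences on GRCm38.p6, cut to the longest stretch free of annotated exons within 250 bases before the start, and read 5′ to 3′ on the strand of the gene. The Col4a5 stretch ends 35 bases before its RefSeq start. Capitals mark matches on either strand to any of 4 motifs, and no marked match overlaps another in these sequences. The TATA box was searched as TATAAA, which many regulated promoters carry before the start. The box bound by NF-Y was searched as CCAAT, in either orientation. The Sp1 site, or GC box, was searched as GGGCGG on both strands. The CArG box is the site of serum response factor in smooth muscle genes.
Col4a4, chr1:82586850-82586920, minus strand: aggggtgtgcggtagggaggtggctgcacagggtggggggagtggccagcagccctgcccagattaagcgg
Col4a6, chrX:141474077-141474326, minus strand: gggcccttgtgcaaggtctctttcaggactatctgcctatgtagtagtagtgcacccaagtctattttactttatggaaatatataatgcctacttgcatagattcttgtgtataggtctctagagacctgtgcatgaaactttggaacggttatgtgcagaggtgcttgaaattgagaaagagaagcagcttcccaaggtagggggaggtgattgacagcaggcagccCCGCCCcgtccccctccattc
Col4a5, chrX:141475169-141475384, plus strand: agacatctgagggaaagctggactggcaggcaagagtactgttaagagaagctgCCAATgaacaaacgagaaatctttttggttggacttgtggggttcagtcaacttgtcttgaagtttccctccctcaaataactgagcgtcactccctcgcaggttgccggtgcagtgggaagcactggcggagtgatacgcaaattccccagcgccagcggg
Col5a1, chr2:27886175-27886424, plus strand: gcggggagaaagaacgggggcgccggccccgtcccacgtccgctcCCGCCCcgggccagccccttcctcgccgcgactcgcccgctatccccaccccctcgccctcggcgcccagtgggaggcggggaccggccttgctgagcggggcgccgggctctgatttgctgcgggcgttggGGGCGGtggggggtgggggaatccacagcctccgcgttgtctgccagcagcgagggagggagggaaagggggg

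The 71 bases that separate Col4a4 from Col4a3 held none of the 4 motifs, the Col4a6 stretch held 1 GC box on the other strand, the Col4a5 stretch 1 CCAAT box (30.5% of all windows cut to the same place hold one) and the Col5a1 stretch 2 GC boxes. Over whole windows of 250 bases, 35 of the 44 collagen genes had a RefSeq entry, with 38 windows in all. A GC box stood in 22 of the 38 windows (57.9%), against 32.7% of all 32851 windows. A CCAAT box stood in 13 (34.2%, against 33.9% of all), a TATA box in 5 (13.2%, against 12.4%) and a CArG box in 1, that of Col6a4 (2.63%, against 1.47%). These matches are letters in a window and say nothing of binding.

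**Figure D1:**
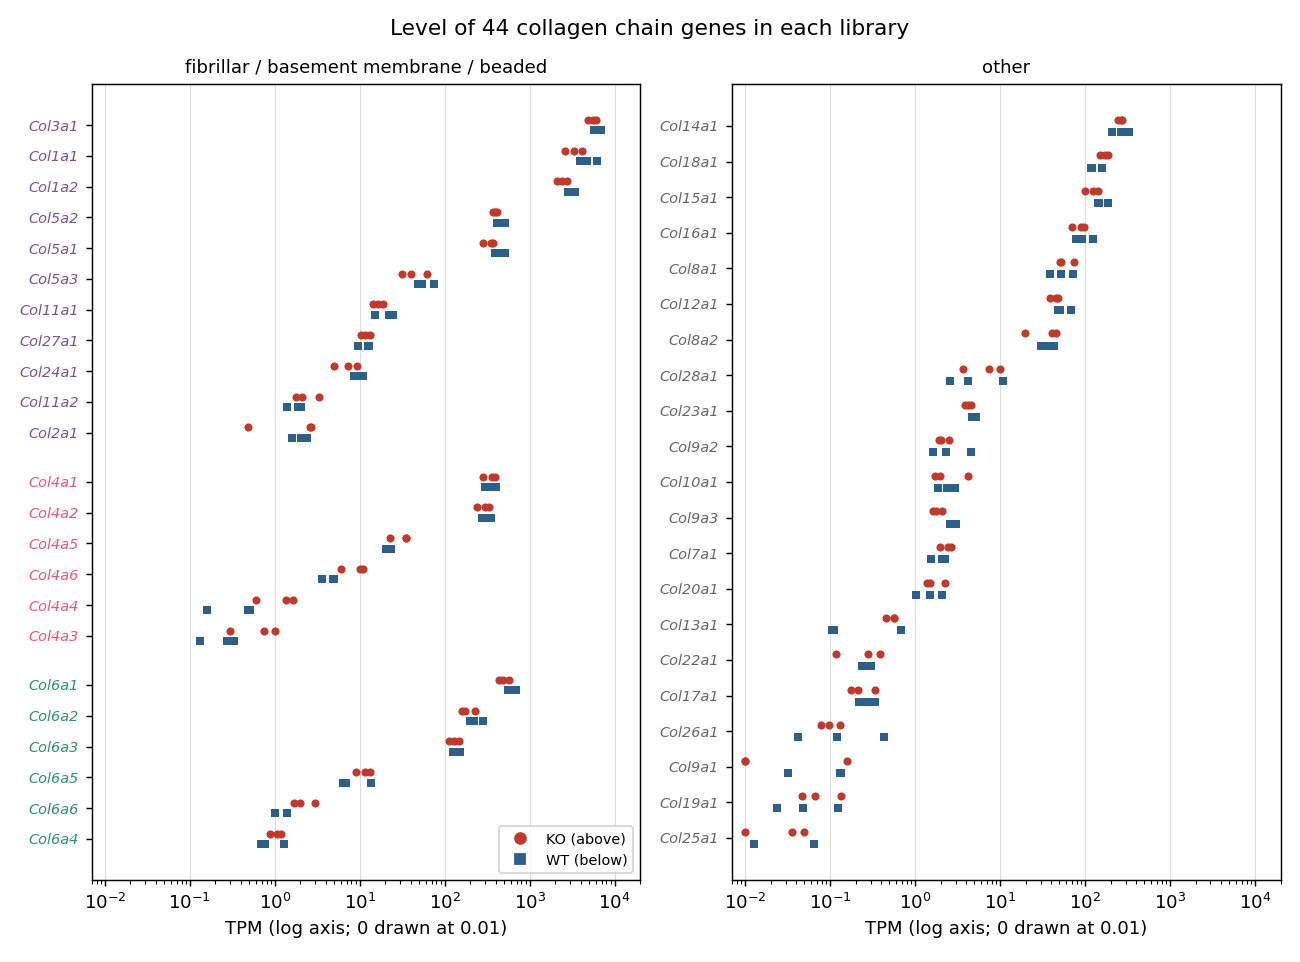
TPM (length-normalised transcript level, log axis) of all 44 collagen genes, with 1 point per library, KO circles above WT squares for each gene, ordered by mean level within type. Levels run from above 2000 TPM for Col3a1, Col1a1 and Col1a2 to below 0.1 TPM for Col25a1, and only a few genes show KO and WT points apart.

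Per unit of exon length (TPM), collagen genes ran from among the most abundant transcripts to near 0. Col3a1, the chain of the type III fibrils of arteries and other stretchable tissue, stood highest, at 5513 ± 609 TPM in KO and 6294 ± 574 TPM in WT (n = 3 per group, SD). It ranked 13th among all genes by mean TPM, with Col1a1 at 17 and Col1a2, its partner in type I collagen, at 31. These 3 genes made up 77.6 to 79.2% of collagen TPM in KO and 79.2 to 80.9% in WT. After them came Col6a1, Col5a2, Col5a1, Col4a1, Col4a2 and Col14a1, all between 262 and 610 TPM in either group mean. At the low end, Col9a1, Col19a1, Col25a1 and Col26a1 did not pass the filter, and none of them had more than 21 counts in any library.

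Collagen genes together took 4.04, 4.49 and 5.06% of counts in the KO libraries, against 5.02, 5.11 and 6.13% in the WT libraries. The groups overlapped, because KO replicate 3 stood above WT replicate 1. Within collagen TPM, the type IV share was 4.61, 4.76 and 4.71% in KO and 4.07, 3.69 and 3.81% in WT, with no overlap. The fibrillar share was 83.4, 84.0 and 84.5% in KO and 85.1, 86.5 and 86.2% in WT, also with no overlap. Shares of collagen TPM sum to 100%, so these shares are not independent of each other. Most type IV TPM came from Col4a1 (mean 348 TPM in KO and 353 TPM in WT) and Col4a2 (287 TPM in KO and 308 TPM in WT). The beaded share was 5.71 ± 0.19% in KO and 5.58 ± 0.01% in WT (n = 3 per group, SD). The share of the other chains was 6.25, 5.71 and 4.93% in KO and 5.22, 4.23 and 4.45% in WT, with overlap. As a share of all library counts, type IV genes took 0.146, 0.168 and 0.189% in KO and 0.159, 0.150 and 0.187% in WT, with overlap. Fibrillar genes took 3.52, 3.93 and 4.450% of counts in KO and 4.447, 4.58 and 5.47% in WT, also with overlap. These shares are descriptions and were not tested.

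The fibrillar genes leaned to lower values in KO. Of 11 tested, 9 had a lower and 2 a higher fitted value, with a median log2 fold change of -0.32, against 0.01 over all tested genes, where 48.8% had a lower value. Only Col5a1 had an unadjusted p under 0.05, and adjusted p-values of the fibrillar genes were 0.441 or more (edgeR, Benjamini-Hochberg). Col1a1, whose product supplies a pair of the chains in each type I molecule, stood at 6078, 7283 and 9556 CPM in KO and 8145, 11435 and 14061 CPM in WT. The groups overlapped, since KO replicate 3 lay above WT replicate 1. Its log2 fold change was -0.55 ± 0.26 (SE; edgeR, adjusted p = 0.475), and it ranged from -0.75 to -0.36 with single libraries left out. It was -0.36 without WT replicate 3, the library with the most Col1a1, and -0.75 without KO replicate 3.

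Col1a2 stood at 9349, 9798 and 11997 CPM in KO and 12382, 13049 and 14551 CPM in WT. All KO libraries lay below all WT libraries, which held for 9.05% of all tested genes. This gave a log2 fold change of -0.36 ± 0.19 (SE; edgeR, adjusted p = 0.537). Col3a1 stood at 17041, 18123 and 20991 CPM in KO and 19968, 20654 and 23173 CPM in WT, so the groups overlapped, and its log2 fold change was -0.18 (SE 0.20).

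Type V chains regulate the start and diameter of type I fibrils. Col5a1 (ENSMUSG00000026837, chromosome 2, 27886425 to 28039514, plus strand) stood at 854, 977 and 1116 CPM in KO and 1065, 1309 and 1499 CPM in WT. KO replicate 3 lay within the WT range, and the log2 fold change was -0.39 ± 0.17 (SE; edgeR, unadjusted p = 0.0497, adjusted p = 0.441). Without WT replicate 3 it was -0.27. Col5a2 stood at 1262, 1297 and 1311 CPM in KO and 1558, 1464 and 1473 CPM in WT. The KO libraries lay closely together and all below WT, with a log2 fold change of -0.22 ± 0.13 (SE; edgeR, adjusted p = 0.594). Col5a2 is the neighbour of Col3a1 on chromosome 1, transcribed towards it, with 24614 bases between them. Col5a3 was more variable, at 76.7, 89.4 and 146 CPM in KO and 106, 135 and 175 CPM in WT, and its log2 fold change was -0.41 (SE 0.26). It was -0.21 without WT replicate 3, -0.23 without KO replicate 1 and -0.74 without KO replicate 3.

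The remaining fibrillar genes were weaker in level. Col11a1, which nucleates fibrils in cartilage and elsewhere, averaged 72.3 ± 10.5 CPM in KO, against 90.4 ± 16.4 CPM in WT (n = 3 per group, SD). Its companion Col11a2 showed a KO over WT log2 fold change of the opposite sign (0.47, SE 0.28, against -0.32, SE 0.16, for Col11a1), which was 0.15 without KO replicate 3. Col24a1 averaged 18.6 ± 4.9 CPM in KO, against 25.8 ± 4.99 CPM in WT. Col27a1 averaged 52.4 ± 4.46 CPM in KO, against 51.9 ± 6.57 CPM in WT, with log2 fold change 0.02 (SE 0.13). Col2a1, the main chain of cartilage fibrils, stood at 1.604, 7.86 and 8.74 CPM in KO and 5.97, 8.24 and 5.06 CPM in WT, and KO replicate 1 was the lowest library. Of 7 cartilage markers, summing to 93.9 to 148 CPM in KO and 75.9 to 107 CPM in WT, Matn1 and Cnmd were at or below 0.363 CPM in every library. Acan was at 15.1, 37.1 and 40.6 CPM in KO and 30.7, 29.5 and 20.5 CPM in WT, lowest in KO replicate 1 as Col2a1 was. Comp lay between 43.9 and 123 CPM in KO and between 38.2 and 69.3 CPM in WT. Hapln1 had higher values in KO, at 0.974 to 1.67 CPM, against 0.230 to 0.666 CPM in WT (edgeR, unadjusted p = 0.00945), and Sox9 and Matn3 had values between 1.94 and 9.39 CPM. The part of cartilage content in the Col2a1 values was not tested.

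**Figure D2:**
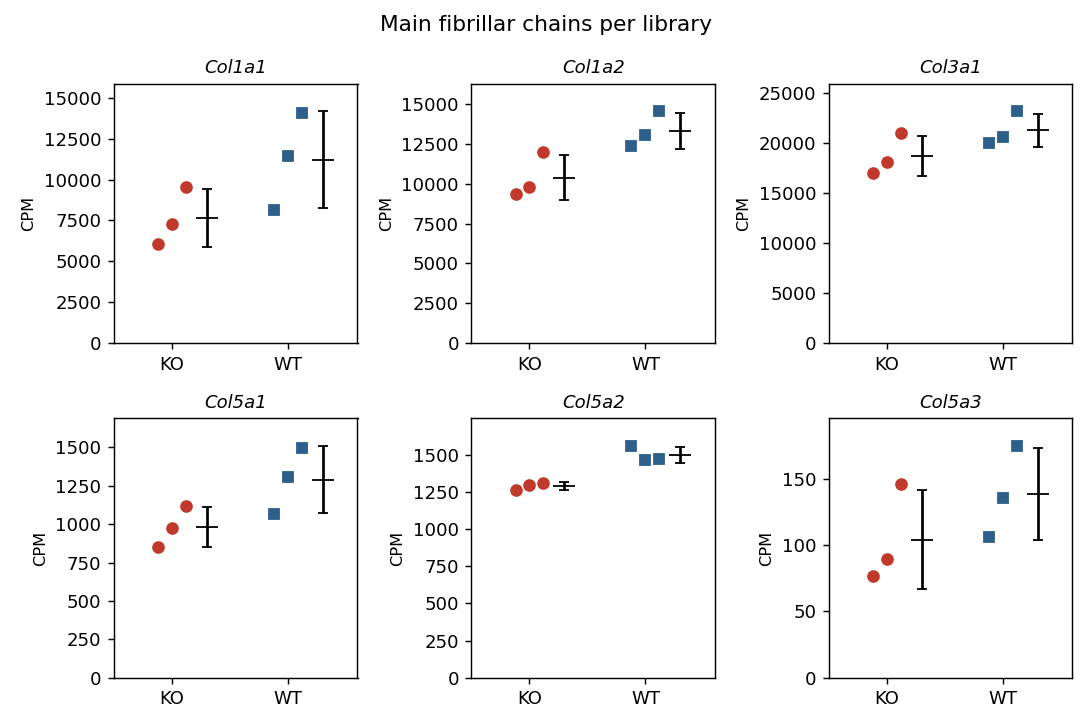
CPM of the 6 most abundant fibrillar chain genes in each library, KO (circles) left of WT (squares), with points in replicate order and the mean and SD beside them. Col1a2 and Col5a2 show all KO libraries below all WT libraries, and in the other 4 panels the groups overlap.

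The basement membrane genes split into an abundant pair with like levels in both groups and 4 minor chains with higher values in KO. Col4a1 stood at 752, 901 and 1037 CPM in KO and 856, 826 and 1031 CPM in WT. Col4a2 stood at 562, 644 and 764 CPM in KO and 633, 677 and 799 CPM in WT. The groups overlapped almost fully for both, with log2 fold changes of -0.01 (SE 0.16) and -0.10 (SE 0.16). With library size alone as the scaling Col4a1 was at 0.0193.

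Col4a6 stood at 30.8, 16.1 and 28.0 CPM in KO and 12.6, 14.2 and 9.997 CPM in WT. Every KO library exceeded every WT library, which held for 7.81% of all tested genes, but KO replicate 2 was close to WT replicate 2. The log2 fold change was 1.02 ± 0.25 (SE; edgeR, unadjusted p = 0.00252, adjusted p = 0.163), or 2.04-fold. The adjusted p was 0.00455 in DESeq2 and 0.00172 in edgeR without the filter, and it lay between 0.132 and 0.418 with single libraries left out. Over those leave-outs the log2 fold change stayed between 0.85 and 1.27.

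Col4a5, mutated in X-linked Alport syndrome in humans, stood at 84.2, 50.8 and 83.7 CPM in KO and 47.5, 58.3 and 46.9 CPM in WT. KO replicate 2 lay among the WT libraries and the other 2 KO libraries lay above them all. The log2 fold change was 0.52 ± 0.20 (SE; edgeR, unadjusted p = 0.026, adjusted p = 0.351), and it was 0.73 without KO replicate 2. Per length, Col4a5 was the more abundant member of its pair, at 31.2 ± 7.2 TPM in KO and 21.9 ± 1.64 TPM in WT, where Col4a6 had 8.98 ± 2.53 TPM in KO and 4.47 ± 0.73 TPM in WT (n = 3 per group, SD).

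Col4a4 stood at 6.19, 2.09 and 5.12 CPM in KO and 0.543, 1.88 and 1.90 CPM in WT, from 108, 41 and 110 counts in KO and 10, 31 and 33 counts in WT. No KO library was as low as any WT library, by a narrow margin for KO replicate 2. The log2 fold change was 1.64 ± 0.52 (SE; edgeR, adjusted p = 0.273), with an adjusted p of 0.0449 in DESeq2 and 0.0175 in edgeR without the filter. It was 1.24 without WT replicate 1, the lowest library. Col4a3 stood at 3.55, 0.970 and 2.60 CPM in KO and 0.868, 1.21 and 0.460 CPM in WT, from 62, 19 and 56 counts in KO and 16, 20 and 8 counts in WT. KO replicate 2 lay within the WT range, and the log2 fold change was 1.48 ± 0.53 (SE; edgeR, unadjusted p = 0.0215, adjusted p = 0.329). Of the exon bases of Col4a3, 5.65% overlap C430014B12Rik on the opposite strand.

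In all 4 minor type IV chains KO replicate 2 was the lowest KO library. The same library was lowest in KO for the summed smooth muscle markers (1633 CPM, against 2550 and 2090 CPM in KO replicates 1 and 3, and 972 to 1451 CPM in WT). Of the 7 smooth muscle markers, 5 had an unadjusted p under 0.05, all with higher values in KO (5.23% of all tested genes), and edgeR with the filter called 0 of them. DESeq2 (2.8% of all tested genes called) and edgeR without the filter (2.18%) both called Col4a6 and Col4a4. They also called 5 of the 7, namely Acta2, Cnn1, Lmod1, Myh11 and Smtn. White adipocyte and skeletal muscle markers each had 4 genes with higher values in KO at an unadjusted p under 0.05 (edgeR). For skeletal muscle this came mainly from KO replicate 3, where the markers summed to 981 CPM. KO replicates 1 and 2, at 5.27 and 5.46 CPM, lay within the WT range for that sum. Of the 4 skeletal muscle genes, only Casq1 had all KO libraries above all WT libraries. Without the filter edgeR called 5 of 6 white adipocyte and 6 of 6 skeletal muscle markers, while DESeq2 called 0 of either. The part of smooth muscle, adipocyte or skeletal muscle content in the type IV result was not tested. Kidney and gut epithelium markers summed to 5.86 to 14.2 CPM in KO and 11.2 to 19.1 CPM in WT, and the kidney tubule gene Umod was at 0 in every library.

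**Figure D3:**
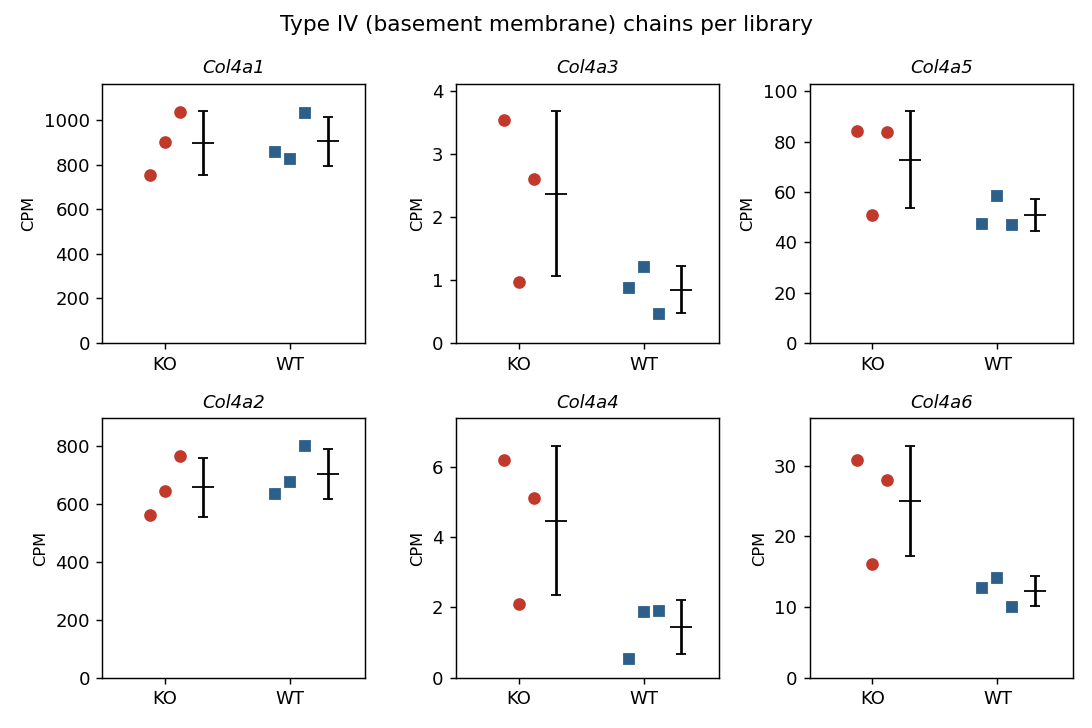
CPM of the 6 type IV chain genes in each library, KO (circles) left of WT (squares), points in replicate order with mean and SD, and each head-to-head pair in a column. Col4a1 and Col4a2 have like values in both groups, while the means of the other 4 are higher in KO, with KO replicate 2 the lowest KO library in each of those 4 panels.

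Among the beaded filament genes, the main chains and the additional chains differed in sign. Col6a1, Col6a2 and Col6a3 form the usual type VI molecule, and Col6a4, Col6a5 and Col6a6 encode chains that resemble that of Col6a3. The log2 fold changes of Col6a1, Col6a2 and Col6a3 were -0.29 (SE 0.16), -0.34 (SE 0.20) and -0.11 (SE 0.14). Those of Col6a4, Col6a5 and Col6a6 were 0.20 (SE 0.31), 0.32 (SE 0.28) and 0.98 (SE 0.28). None was called by edgeR with the filter, and only Col6a6 had an unadjusted p under 0.05 in that fit. Col6a4 was at -0.00248 without WT replicate 1, so its sign rests on that library.

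Col6a6 (ENSMUSG00000043719, chromosome 9, 105687809 to 105828160, minus strand) stood at 5.50, 5.97 and 9.68 CPM in KO and 2.98, 3.39 and 4.37 CPM in WT. The KO libraries were all above the WT libraries, and KO replicate 3 was the highest. The log2 fold change was 0.98 ± 0.28 (SE; edgeR, unadjusted p = 0.00687, adjusted p = 0.228), or 1.97-fold, and 0.68 without KO replicate 3. With KO replicate 3 and WT replicate 2 left out together it was 0.65 (edgeR, unadjusted p = 0.0713). The adjusted p was 0.0575 in DESeq2 and 0.0455 in edgeR without the filter. Its neighbour Col6a5 stood at 30.7, 35.6 and 43.8 CPM in KO and 19.2, 24.3 and 44.6 CPM in WT, so that WT replicate 3 alone stood as high as KO. Without that library its log2 fold change was 0.76.

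The abundant type VI genes were less spread. Col6a1 stood at 672, 696 and 882 CPM in KO and 829, 901 and 1032 CPM in WT. Col6a2 stood at 469, 479 and 656 CPM in KO and 531, 685 and 819 CPM in WT. Col6a3 stood at 474, 503 and 613 CPM in KO and 534, 558 and 622 CPM in WT. In each of the 3 genes KO replicate 3 lay within the WT range and the other KO libraries below it. The log2 fold change of Col6a2 was -0.52 without KO replicate 3 and -0.18 without WT replicate 3.

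Of the 21 other chains 17 were tested, 8 with a higher and 9 with a lower fitted value in KO, and a median log2 fold change of -0.01. The multiplexins, which sit in the basement membrane zone of vessels and release anti-angiogenic fragments, had opposite signs. Col18a1, the source of endostatin, stood at 427, 353 and 459 CPM in KO and 269, 309 and 384 CPM in WT, with log2 fold change 0.37 ± 0.16 (SE; edgeR, adjusted p = 0.455). Col15a1 stood at 227, 300 and 280 CPM in KO and 295, 331 and 404 CPM in WT, with log2 fold change -0.35 ± 0.16 (SE; edgeR, adjusted p = 0.458). In both genes 1 KO library lay within the WT range, and the Col15a1 log2 fold change was -0.22 without WT replicate 3.

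Fibril-associated chains bind the surface of fibrils and link them to other matrix. Of 7 tested, 5 had a lower and 2 a higher value in KO. Col14a1, the most abundant of the 21, stood at 609, 619 and 680 CPM in KO and 744, 543 and 637 CPM in WT, with log2 fold change -0.01 (SE 0.15). Col12a1 stood at 248, 246 and 206 CPM in KO and 336, 285 and 251 CPM in WT. The groups did not overlap, though by TPM KO replicate 2 (48.8 TPM) stood above WT replicate 3 (47.7 TPM). The log2 fold change was -0.32 ± 0.14 (SE; edgeR, adjusted p = 0.455), and -0.20 without WT replicate 1. Col16a1 averaged 199.6 ± 26.6 CPM in KO, against 228 ± 53.2 CPM in WT.

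Col9a3, a chain of the type IX collagen best known from cartilage, had 39, 44 and 61 counts in KO and 69, 62 and 60 counts in WT. In CPM these were 2.23, 2.25 and 2.84 in KO and 3.75, 3.75 and 3.45 in WT, with no overlap. Fitted, Col9a3 had a log2 fold change of -0.58 ± 0.24 (SE; edgeR, unadjusted p = 0.042, adjusted p = 0.416). Reads of Tcfl5 on the opposite strand could enter the count of Col9a3, since 6.07% of its exon bases overlap that gene. Col9a2 averaged 2.29 ± 0.24 CPM in KO, against 3.08 ± 1.7 CPM in WT.

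Type VIII collagen is made by activated smooth muscle and endothelial cells and forms a hexagonal network. Col8a1 stood at 207, 136 and 140 CPM in KO and 181, 112 and 143 CPM in WT, and Col8a2 at 72.5, 60.9 and 31.02 CPM in KO and 43.96, 60.6 and 66.5 CPM in WT. The groups overlapped for both, with log2 fold changes of 0.15 (SE 0.21) and -0.06 (SE 0.28). Col10a1, the related chain of hypertrophic cartilage, lay between 1.79 and 4.61 CPM in KO and between 1.85 and 3.22 CPM in WT.

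Col28a1, known from peripheral nerve, varied most between libraries of the same genotype among the other chains above 5 CPM. It stood at 12.9, 16.4 and 6.33 CPM in KO and 4.02, 7.69 and 18.4 CPM in WT. Schwann cell markers (6 genes) summed to 80.8, 151 and 69.4 CPM in KO and 59.97, 100.2 and 197 CPM in WT, in the same order of libraries within each genotype. The part of nerve content in the Col28a1 values was not tested. Its log2 fold change was 0.24 (SE 0.51).

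Of the transmembrane chains, Col23a1 stood at 8.59, 8.58 and 7.72 CPM in KO and 9.71, 10.1 and 9.25 CPM in WT, all KO libraries below all WT libraries, with a log2 fold change of -0.22 (SE 0.16). Col13a1 had 16, 17 and 16 counts in KO and 3, 3 and 19 counts in WT, so that WT replicate 3 alone matched KO, with a log2 fold change of 0.81 (SE 0.67). Without WT replicate 3 it was 2.25, and without WT replicate 1 or 2 it was 0.39 or 0.43. Col17a1, of hemidesmosomes in skin, had 8 to 13 counts in KO and 8 to 12 in WT. Col7a1, the anchoring fibril chain, averaged 8.37 ± 1.21 CPM in KO, against 6.91 ± 0.84 CPM in WT. Col20a1 and Col22a1 showed KO over WT log2 fold changes of 0.18 (SE 0.34) and 0.01 (SE 0.48).

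**Figure D4:**
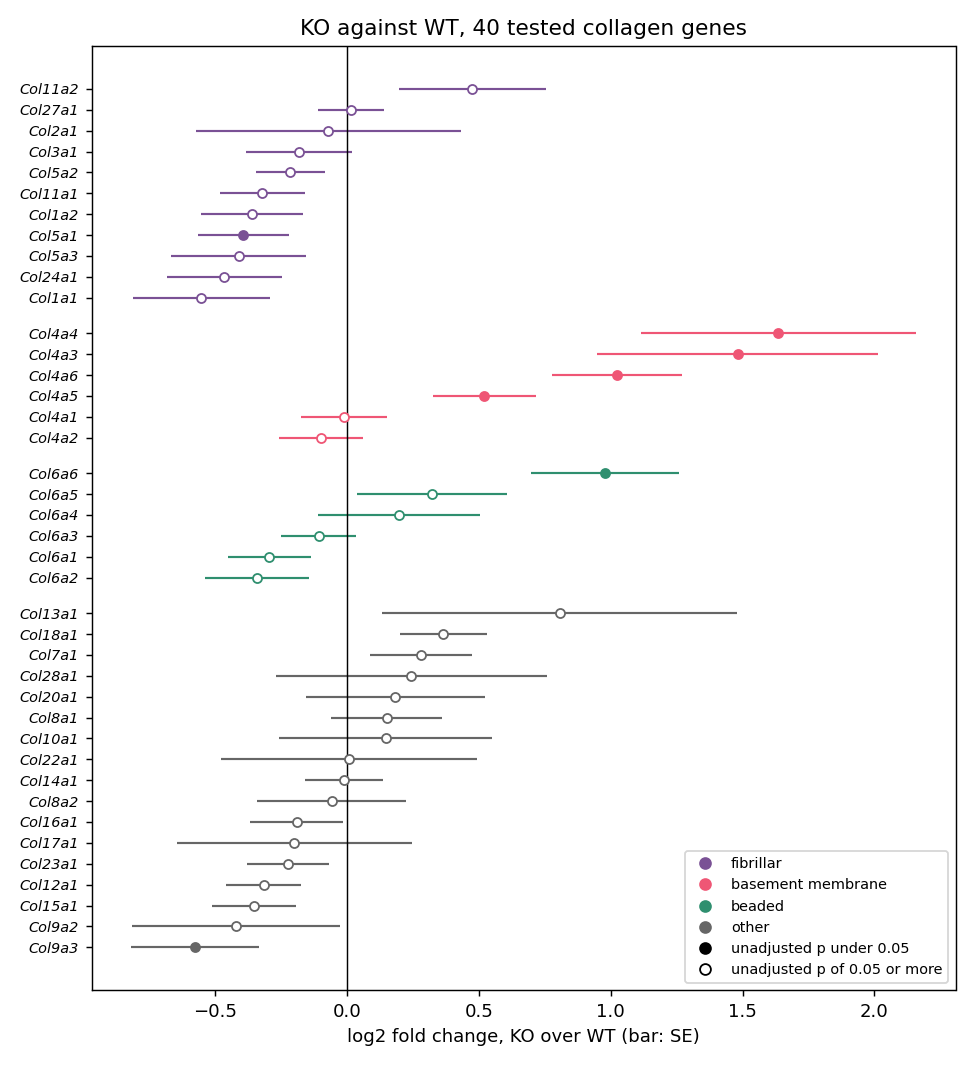
Fitted log2 fold change of KO over WT (point) with its SE (bar) for the 40 tested collagen genes by type. Filled points have an unadjusted p under 0.05, and 4 of these 7 are type IV chains at 0.52 to 1.64, while 9 of 11 fibrillar genes lie below 0.

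Counted over all 40 tested collagen genes, KO and WT libraries did not overlap in 8 (20%), against 16.9% of all tested genes. The 3 with KO above WT were Col4a4, Col4a6 and Col6a6. The 5 with KO below WT were Col1a2, Col5a2, Col9a3, Col12a1 and Col23a1. Fitted values were higher in 17 and lower in 23 genes. Without WT replicate 3 this split became 22 higher and 18 lower.

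Chains of a molecule are used in set proportions, and ratios of chains were formed within each library for 11 pairs, which removes the library scaling. Of these, 10 pair chains of the same collagen type, and Col3a1 over Col1a1 sets type III against type I. For each pair the log2 ratio of counts was compared by an exact permutation test (two-sided, smallest possible p of 0.1 for 3 against 3), with Benjamini-Hochberg adjustment over the 11 pairs. With that smallest p no pair could reach an adjusted p under 0.05, so the test could not call any. The smallest adjusted p by that exact permutation test was 0.367.

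In 3 pairs the groups did not overlap, each with an exact permutation p of 0.1, which only restates the lack of overlap. Levels of KO and WT did not overlap in 16.9% of all tested genes, and no such share was formed for ratios of other genes. Reads per base of Col4a5 relative to Col4a6 were 3.25, 3.74 and 3.54 in KO and 4.45, 4.87 and 5.55 in WT. The log2 ratio was lower in KO by a difference of -0.49, so the Col4a6 share of this pair was the larger one in KO. Relative to Col6a1, Col6a3 was at 0.258, 0.265 and 0.254 in KO and 0.236, 0.227 and 0.221 in WT, a log2 difference of 0.19. Col11a1 relative to Col11a2 was at 10.2, 7.65 and 4.30 in KO and 12.3, 10.9 and 11.7 in WT, a log2 difference of -0.74 that narrowed to -0.39 without KO replicate 3.

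For type I collagen, Col1a1 relative to Col1a2 was at 1.23, 1.41 and 1.51 in KO and 1.25, 1.66 and 1.83 in WT. The groups overlapped, with a log2 difference of -0.18 (exact permutation p = 0.4). Col3a1 relative to Col1a1 was at 1.87, 1.66 and 1.47 in KO and 1.64, 1.21 and 1.10 in WT, a log2 difference of 0.36 (exact permutation p = 0.2). The pair Col4a1 and Col4a2 held the narrowest range of the 11 on the log scale, at 1.19, 1.24 and 1.204 in KO and 1.199, 1.08 and 1.14 in WT. Col4a3 relative to Col4a4 was at 0.613, 0.5003 and 0.544 in KO and 1.67, 0.693 and 0.270 in WT, so that WT libraries lay on both sides of KO. The lowest count in this pair was 8, of Col4a3 in WT replicate 3.

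**Figure D5:**
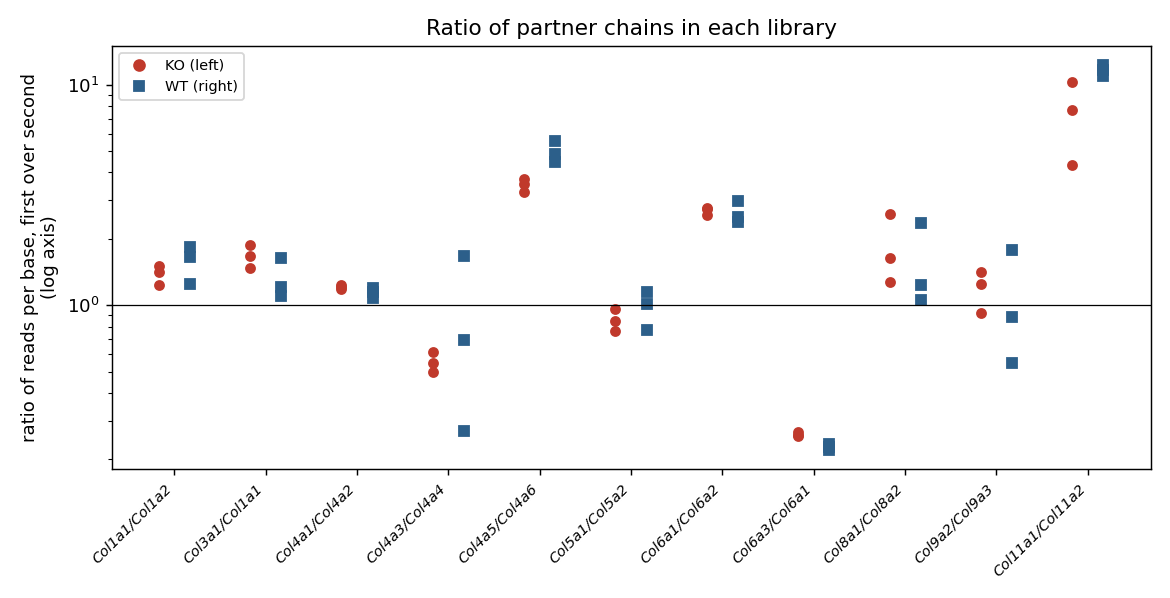
Reads per base of the first chain over the second (log axis) in each library for 11 pairs of chains, KO circles left of WT squares. Only Col4a5/Col4a6, Col6a3/Col6a1 and Col11a1/Col11a2 show no overlap between KO and WT, and Col4a1/Col4a2 lies between 1.08 and 1.24 in all 6 libraries.

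Genes that make, join, bind and cut collagen were examined beside the chains. In none of the 5 lists was a gene called by edgeR with the filter (0.0123% of all tested genes called) or without it (2.18%). DESeq2, which called 2.8% of all tested genes, called 1 gene of these lists, Mmp2. Over all tested genes, 5.23% had a higher and 6.08% a lower value in KO at an unadjusted p under 0.05, and the counts of each list are to be read against these shares. Chain modification and folding had 20 tested genes, 1 with a higher and 1 with a lower value in KO at an unadjusted p under 0.05, which is near the share over all tested genes, and a median log2 fold change of -0.05. The 1 higher was P3h2, which hydroxylates prolines of type IV collagen and averaged 4.43 ± 0.52 CPM in KO, against 2.44 ± 0.63 CPM in WT (n = 3 per group, SD). Its log2 fold change was 0.86 ± 0.27 (SE; edgeR, adjusted p = 0.268), and 28.4% of its exon bases overlap Gm4524 on the opposite strand, which makes the count uncertain. The 1 lower was Fkbp10, a procollagen chaperone, which averaged 171 ± 12.7 CPM in KO, against 211 ± 17.8 CPM in WT (n = 3 per group, SD), with log2 fold change -0.31 (SE 0.12). Serpinh1, the collagen chaperone of the endoplasmic reticulum, showed a KO over WT log2 fold change of -0.03 (SE 0.19), which was 0.00465 with library size alone as the scaling, and P3h1 and Colgalt2 had -0.17 (SE 0.10) and 0.73 (SE 0.42).

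Of 13 tested genes of procollagen cleavage and cross-linking, 10 had a lower value in KO and 1 an unadjusted p under 0.05. That gene was Loxl2, a cross-linking oxidase, which averaged 162 ± 17.7 CPM in KO, against 209 ± 21.4 CPM in WT (n = 3 per group, SD), with log2 fold change -0.36 ± 0.13 (SE; edgeR, adjusted p = 0.322). Pxdn, the peroxidase that forms sulfilimine bonds in type IV collagen, had -0.22 (SE 0.11), Loxl3 (11.6% of its exon bases overlap Htra2) -0.22 (SE 0.11), and the procollagen C-proteinase gene Bmp1 -0.22 (SE 0.15). Lox itself had -0.08 (SE 0.14).

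Collagen receptors and uptake had 10 tested genes, with Mrc1 higher (0.38, SE 0.15) and Lair1 lower (-0.48, SE 0.21) at an unadjusted p under 0.05. Mrc2, which takes up collagen fragments, showed a KO over WT log2 fold change of -0.23 (SE 0.11), and the integrin subunit gene Itgb1 of 0.30 (SE 0.14). Among 9 tested fibril-binding genes none had an unadjusted p under 0.05, with Fmod at -0.27 (SE 0.22), Ogn at 0.16 (SE 0.14), Fn1 at 0.16 (SE 0.16) and Sparc at -0.12 (SE 0.18).

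Of 6 tested collagen-cleaving proteases, 2 had an unadjusted p under 0.05, both with lower values in KO (6.08% of all tested genes). Mmp2, a gelatinase, stood at 743, 774 and 741 CPM in KO and 894, 1019 and 1017 CPM in WT. Mmp14, a collagenase of the cell surface that activates the Mmp2 protein, stood at 639, 745 and 757 CPM in KO and 915, 912 and 959 CPM in WT. All KO libraries lay below all WT libraries for both (9.05% of all tested genes), with log2 fold changes of -0.38 ± 0.13 (SE; edgeR, adjusted p = 0.306) and -0.38 (SE 0.13, adjusted p = 0.314, edgeR). DESeq2, which called 2.8% of all tested genes, gave Mmp2 an adjusted p of 0.0393. Mmp8 and Ctsk showed KO over WT log2 fold changes of 0.44 (SE 0.27) and 0.16 (SE 0.11). Without KO replicate 2 that of Mmp8 was 0.0725. Mmp1a had 0 counts in all libraries.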

How the data were processed

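The authors deposited a table of raw counts (54532 genes by 6 libraries, of which 3 were KO and 3 WT). Per the labels' protocols, RNA was bound to poly-T beads and primed with random hexamers. The submitters' processing notes name HISAT2 2.0.5, featureCounts 1.5.0-p3 and GRCm38; strand setting, annotation release and treatment of multi-mapping reads were not given in the sources used here, so reads of overlapping genes cannot be told apart.

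Counts were fitted over the whole table in R 4.3.3 with edgeR 4.0.16 (filterByExpr, TMM, quasi-likelihood test, Benjamini-Hochberg), which tested 16237 genes. An SE is the log2 fold change divided by the square root of F. TPM used union exon lengths from GENCODE mouse release 21 (GRCm38). Ratios had 0.5 counts added to both chains. DESeq2 1.42.0, limma 3.58.1, other scalings and filters, a replicate block and leave-outs were alternatives. The edgeR script was tested on simulated data. Pairs of libraries differed by at least 25.6 in chi-square per degree of freedom, so none was a repeat sequencing of another library. Whether separate libraries came from the same animal cannot be told from this. Intervals were not formed; SDs are between libraries.

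The members, lists and tests were chosen with earlier results of these data known. Values per library are given for the 3 highest genes of each type by TPM, for those with an unadjusted p under 0.05, and for those above 1 CPM whose groups do not overlap; of each pathway list, up to 4 genes by smallest p, with Lox and Serpinh1. Other collagen genes shown per library were chosen after their values were seen. Figures were drawn with matplotlib 3.10.9.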

Additional observations from a re-analysis of the deposited data

How the results depend on the processing

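The count of collagen genes called was 0 in every leave-out, scaling and limma-voom fit, 3 without the filter on low counts and 2 with DESeq2. The count at an unadjusted p under 0.05 was 13 without the filter and 13 with DESeq2, and ran from 4 (without KO replicate 1) to 9 (without KO replicate 3) over the leave-outs. With the replicate block 0 were called and 10 had an unadjusted p under 0.05; the numbers do not pair the libraries, since deviations of same-numbered libraries correlated at -0.10, -0.06 and -0.12 and 0 of 6 libraries correlated best with their own number. The difference in the collagen share of counts (-0.891 percentage points, KO minus WT) was -0.832 with mitochondrially encoded genes left out of the total and ran from -1.16 (without KO replicate 3) to -0.538 (without WT replicate 3) over the 6 single leave-outs. Other alternatives were not run for it.

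The following directions were not stable, and the cause was not tested. With library size alone, Col4a1 (0.0193), Col14a1 (0.0153) and Serpinh1 (0.00465) changed sign. Col22a1 did so in limma-voom (-0.15) and with the replicate block (-0.0933). With KO replicate 3 and WT replicate 2 left out together, Col27a1 (-0.0685), Col8a2 (0.28), Col10a1 (-0.34), Col22a1 (-0.40), Col17a1 (0.0238), Lox (0.0710) and the ratio Col8a1/Col8a2 (-0.24) changed sign. Over single leave-outs the log2 fold change crossed 0 for Col4a1 (-0.13 to 0.10), Col4a2 (-0.22 to 0.00319), Col6a4 (-0.00248 to 0.51), Col27a1 (-0.0715 to 0.11), Col2a1 (-0.43 to 0.37), Col14a1 (-0.12 to 0.11), Col16a1 (-0.30 to 0.0157), Col8a1 (-0.0728 to 0.34), Col8a2 (-0.31 to 0.23), Col28a1 (-0.14 to 1.02), Col9a2 (-0.73 to 0.10), Col10a1 (-0.39 to 0.40), Col20a1 (-0.10 to 0.49), Col22a1 (-0.41 to 0.37), Lox (-0.13 to 0.0175) and Serpinh1 (-0.14 to 0.11). The ratio differences that crossed 0 were those of Col4a3/Col4a4 (-0.97 to 0.35), Col6a1/Col6a2 (-0.0252 to 0.13), Col8a1/Col8a2 (-0.00739 to 0.62) and Col9a2/Col9a3 (-0.10 to 0.76). Without changing sign, single leave-outs moved Lair1 to -0.25, Colgalt2 to 0.41, Bmp1 to -0.0985 and Fmod to between -0.54 and -0.0870.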
